A study of Mus musculus with 6 samples.

Results

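The mouse aquaporin genes were read on 6 two-colour arrays that compared total RNA of epididymis, testis and the stromal vascular fraction (SVF) of adipose tissue, the non-adipocyte cells released when fat is digested. The 9 genes were the probes that the platform annotation names Aqp1, Aqp2, Aqp3, Aqp4, Aqp5, Aqp7, Aqp8, Aqp9 and Aqp11, with 1 probe each, out of 18532 named genes and 25344 probes. Epididymis is the duct in which sperm mature, testis holds germ, Sertoli and Leydig cells, and the 3 tissues were set against each other in 3 dye swaps. The design names 1 RNA sample per tissue, and the labels give no strain, age or number of animals. No treatment or genotype is named for any of them. The 2 arrays of a dye swap are therefore repeat hybridisations of the same RNAs, no test between tissues could be made, and each SD below covers hybridisation and dye only (n = 2 arrays). In whole tissue RNA, fewer cells of a type and less RNA per cell cannot be told apart.

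Aquaporins are membrane channels that form tetramers with a water pore in each subunit. Most of them pass water alone, while the aquaglyceroporins Aqp3, Aqp7 and Aqp9 also pass glycerol and other small solutes. In the male tract, fluid is secreted by the seminiferous tubules and reabsorbed along the excurrent ducts, and several aquaporins are known from their epithelia. In fat, AQP1 lies in capillary endothelium and AQP7 lets glycerol leave the adipocyte. Aqp11 belongs to a divergent branch whose protein sits mainly in the endoplasmic reticulum.

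Of the 9 genes, 3 differed between tissues by at least 2-fold on both arrays of a dye swap, and each had a pattern of its own. Aqp1 was highest in SVF. Aqp9, by the probe annotated with its symbol, was higher in both epididymis and testis than in SVF. A second probe at its locus, annotated 1700020I22Rik, was called against SVF for testis only. Aqp11 was highest in testis. Of all named genes, 47.1% were called in 1 comparison or more. The other 6, Aqp2, Aqp3, Aqp4, Aqp5, Aqp7 and Aqp8, did not meet it in any comparison.

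The sequences upstream of the 3 genes that differed are shown because they are the stretches nearest the start of each transcript whose level differed. They are the 250 bases before the RefSeq transcription start in GRCm38.p6, 5′ to 3′ on the gene's strand, at chr6:55336049-55336298 (plus strand) for Aqp1, chr9:71163290-71163539 (minus strand) for Aqp9 and chr7:97738248-97738497 (minus strand) for Aqp11. Capitals mark matches on either strand to GGGCGG (the GC box) or TGTTCT (the hexamer of androgen response elements). For Aqp9, which has another annotated start, the more upstream one is shown.
Aqp1: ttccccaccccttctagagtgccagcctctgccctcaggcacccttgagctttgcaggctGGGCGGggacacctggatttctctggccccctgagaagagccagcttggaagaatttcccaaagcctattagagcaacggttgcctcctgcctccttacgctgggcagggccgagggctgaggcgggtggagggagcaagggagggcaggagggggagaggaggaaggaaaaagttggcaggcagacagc
Aqp9: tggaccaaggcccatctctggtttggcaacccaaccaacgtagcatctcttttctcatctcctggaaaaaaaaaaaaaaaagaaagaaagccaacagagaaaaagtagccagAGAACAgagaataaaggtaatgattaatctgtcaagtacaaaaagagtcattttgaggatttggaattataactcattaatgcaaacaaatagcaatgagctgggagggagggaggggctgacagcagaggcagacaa
Aqp11: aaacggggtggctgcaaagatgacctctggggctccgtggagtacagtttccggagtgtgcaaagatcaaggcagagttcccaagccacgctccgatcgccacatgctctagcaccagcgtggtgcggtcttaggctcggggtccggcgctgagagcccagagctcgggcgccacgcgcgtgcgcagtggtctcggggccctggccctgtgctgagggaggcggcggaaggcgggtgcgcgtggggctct

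The windows differed in base composition. That of Aqp1 was 62.0% G or C with 5 CpG, that of Aqp9 40.4% with 1 CpG, and that of Aqp11 67.2% with 23 CpG, against medians of 52.4% and 6 CpG over 32851 RefSeq promoter windows of the same length. The motifs searched on both strands, which do not overlap in these windows, were TATAAA (the TATA box), GGGCGG, TGACGTCA (the cyclic AMP response element) and TGTTCT. Positions count back from the start site, the base before it being -1. Aqp1 held 1 GGGCGG at -190, a hexamer found in 32.7% of all windows. Aqp9 held 1 TGTTCT, on the opposite strand at -138, which 16.1% of all windows share. None of the 4 motifs lay in the Aqp11 window or in the other Aqp9 window. TATAAA and TGACGTCA occurred in 12.4% and 1.55% of all windows. These matches describe letters and show no binding.

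Ratios are given as log2 of the named tissue over the other, on the first and then the second array of the pair, whose dyes are exchanged. The deposited values state neither the base nor the direction of the logarithm. Log2 was taken by convention, and the Cy5 tissue as the numerator, so directions are likely rather than stated. Before any sign was turned, the paired arrays ran opposite over all probes (Pearson's r -0.86 in testis with SVF, -0.64 in epididymis with SVF, -0.77 in epididymis with testis). With this direction, 9 of 9 epididymal principal cell markers were higher in epididymis than in both testis and SVF. Testis exceeded SVF for all 10 spermatid markers, and 6 of 7 leukocyte markers were lower in testis and in epididymis than in SVF. Spot intensities were not analysed here. A ratio near 0 can therefore come from equal levels or from a signal near background in both tissues.

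**Figure D1:**
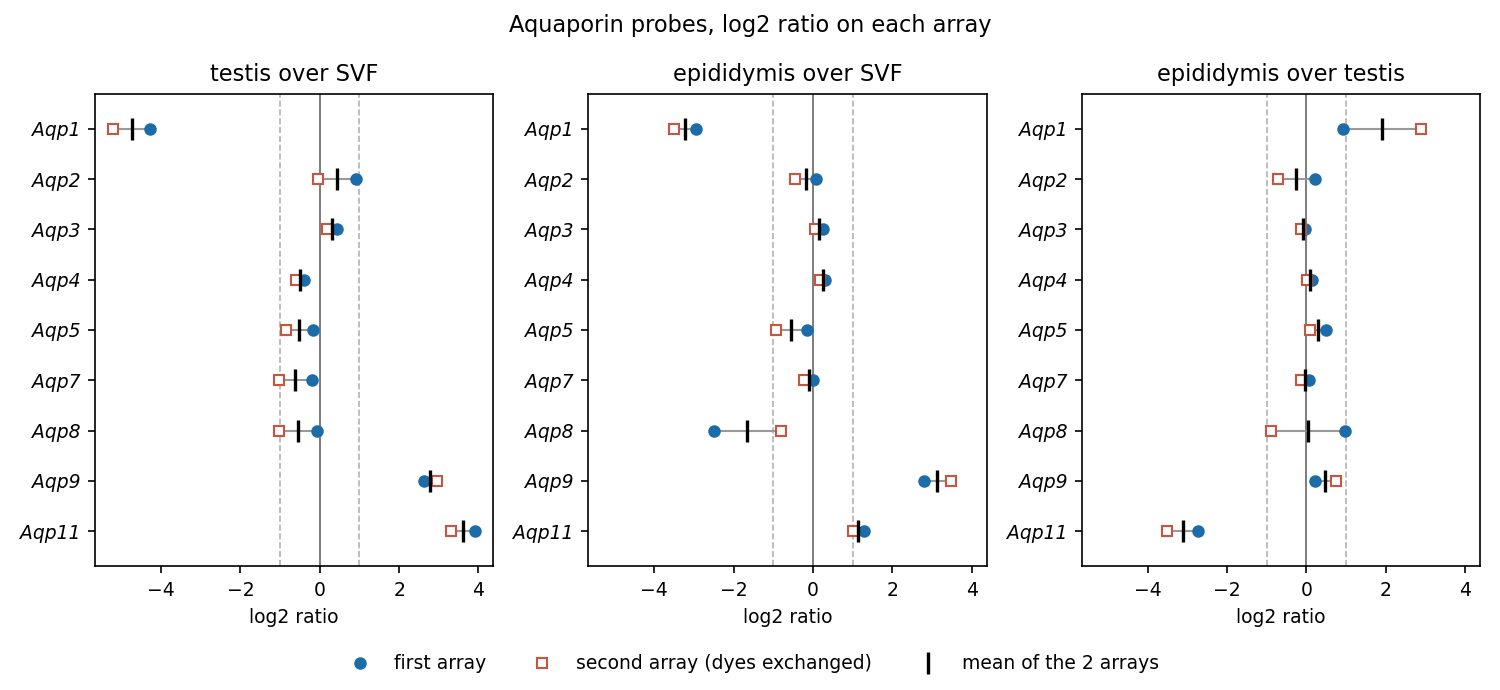
Log2 ratios of the 9 aquaporin probes in the 3 comparisons, with 1 filled circle and 1 open square for the 2 arrays of a dye swap and a black tick for their mean. Dashed lines mark a 2-fold difference. Aqp1 lies far left of them against SVF on every array, Aqp9 and Aqp11 lie right of them against SVF, and Aqp11 lies left of them in epididymis over testis.

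Aqp1, the water channel of endothelium and red cells, had the largest ratio of the family. For testis over SVF it stood at -4.28 and -5.20, a mean of -4.74 ± 0.65 (SD, n = 2), which is 26.7-fold lower in testis and the 115th lowest of 18532 genes. For epididymis over SVF it stood at -2.94 and -3.50, a mean of -3.22 ± 0.39, or 9.32-fold lower in epididymis and the 265th lowest. All 4 arrays that carried SVF thus placed Aqp1 higher in SVF. It was the only 1 of the 9 to do so by the 2-fold rule, in testis against SVF (16% of named genes called in that direction) and in epididymis against SVF (8.68%).

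Between the ducts and the gonad Aqp1 was less settled. Epididymis over testis gave 0.93 and 2.90, a mean of 1.91 ± 1.39. Both arrays had it higher in epididymis, but the first fell just short of 2-fold, so it was not counted. Its SD was larger than that of 94.8% of named genes in this comparison. The ratio computed from the other 4 arrays, through SVF, was 1.52. None of the 9 aquaporins was counted as higher in epididymis than in testis, a direction called for 14.3% of named genes. With 2-fold on the mean of both arrays, Aqp1 was.

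Of cell types known to carry AQP1, endothelial and erythroid markers leaned the same way, while mesothelial markers in epididymis over SVF were mixed. Of all named genes, 16% were lower in testis than in SVF and 8.68% lower in epididymis than in SVF. Of 8 endothelial markers, 5 were lower in testis than in SVF (median log2 ratio -1.56, range -6.70 to -0.49) and 4 lower in epididymis than in SVF (median -1.75, range -4.97 to -0.31). The capillary marker Emcn stood at -4.89 ± 0.50 and -2.40 ± 0.14. Of 4 measured erythroid markers, 3 were lower in testis (median -2.49, range -2.70 to -0.67) and 3 lower in epididymis (median -2.73, range -3.32 to -0.90), with the heme synthesis gene Alas2 at -2.70 ± 0.16 and -3.32 ± 0.10. Of 5 mesothelial markers, 3 were lower in testis (median -2.24, range -4.94 to 0.07) and 2 lower in epididymis (median -0.27, range -2.25 to 0.79). Markers of other cells leaned to SVF too. Leukocyte markers were lower for 6 of 7 in both comparisons (medians -3.86 and -2.81). Adipocyte markers were lower for 5 of 7 in testis and 2 in epididymis (medians -2.12 and -0.79). For epididymis over testis, where Aqp1 had a mean of 1.91, 2 of 8 endothelial markers were higher (median 0.62, 14.3% of named genes). Of erythroid markers 1 of 4 was higher there (median 0.30, range -0.73 to 1.58). The part of any of these cells in the Aqp1 ratio was not tested.

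Aqp9 encodes an aquaglyceroporin that in rats is abundant on the apical face of epididymal principal cells. Epididymis over SVF gave 2.79 and 3.47, a mean of 3.13 ± 0.48 and 8.74-fold higher in epididymis. This was the 227th highest of 18532 ratios. Testis over SVF gave 2.63 and 2.95, a mean of 2.79 ± 0.22 and 6.91-fold higher in testis. Aqp9 and Aqp11 were the 2 of 9 members higher in epididymis than in SVF (10.2% of named genes) and also the 2 higher in testis than in SVF (20.7%). Epididymis over testis gave 0.22 and 0.75 for Aqp9, a mean of 0.48 ± 0.38. Both arrays leaned to epididymis, and the difference stayed below 2-fold.

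The markers beside Aqp9 did not all move with it. The 9 measured principal cell markers had a median log2 ratio of 6.88 for epididymis over SVF and 5.74 for epididymis over testis, with the defensin Defb12 at 7.10 ± 0.51 and 7.42 ± 1.03. Their median for testis over SVF was -0.48, where Aqp9 stood at 2.79. Leukocytes are another known site of AQP9. Their markers had medians of -3.86 for testis over SVF (range -5.54 to -0.23) and -2.81 for epididymis over SVF (range -4.64 to -0.63), the opposite direction to Aqp9. The part of these cells in the Aqp9 ratios was not tested.

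A second probe at the Aqp9 locus, named here after its values were seen, gave another pattern. It was annotated 1700020I22Rik, a RIKEN cDNA name that the GRCm38.p6 gene table lists as a synonym of Aqp9. Testis over SVF was 3.45 and 3.30 for this probe, a mean of 3.37 ± 0.11, against 2.79 ± 0.22 for the Aqp9 probe. Epididymis over testis, however, was -2.55 and -3.64, a mean of -3.10 ± 0.77, and epididymis over SVF was 0.57 and 1.13. Both probes thus put testis above SVF by more than 2-fold. Their means differed by more than the SD of either in all 3 comparisons, and most in those with epididymis. Where the 2 probes bind along the transcripts was not analysed here. Averaged over both probes, Aqp9 stood at -1.31 for epididymis over testis, against 0.48 for its own probe, and at 1.99 for epididymis over SVF, against 3.13.

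**Figure D2:**
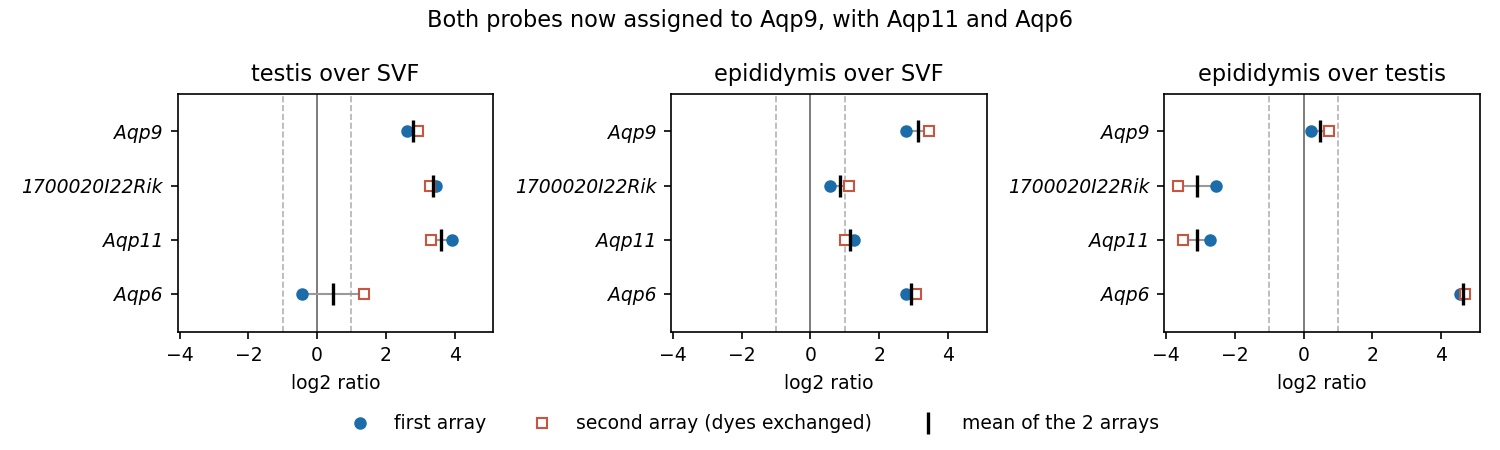
Log2 ratios on each array for the probe annotated Aqp9, the probe annotated 1700020I22Rik, Aqp11 and Aqp6, drawn with the same symbols and dashed 2-fold lines as the plot of all members. In epididymis over testis, 1700020I22Rik lies at -2.55 and -3.64, beside Aqp11, while Aqp9 lies at 0.22 and 0.75 and Aqp6 at 4.56 and 4.71.

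Aqp11, the intracellular aquaporin that mice need for normal kidney tubules, was highest in testis. Testis over SVF gave 3.92 and 3.31, a mean of 3.61 ± 0.43 and 12.2-fold higher in testis. Epididymis over testis gave -2.72 and -3.50, a mean of -3.11 ± 0.55 and 8.64-fold lower in epididymis. All 4 arrays that carried testis RNA placed Aqp11 higher there. It was the 1 of 9 members counted as higher in testis than in epididymis, a direction called for 18% of named genes.

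Epididymis over SVF was smaller for Aqp11, at 1.27 and 1.02, a mean of 1.15 ± 0.18 or 2.21-fold higher in epididymis. The second array lies just inside the 2-fold rule. The ratio through testis, from the other 4 arrays, was 0.50, and the estimate over all 6 arrays was 0.93, so this difference holds at 2-fold only in the direct comparison.

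The medians of spermatid, Sertoli and Leydig cell markers all followed the order of Aqp11 across tissues. All 10 spermatid markers exceeded their SVF level in testis (median log2 ratio 4.58, range 2.68 to 5.77). Of these, 8 were lower in epididymis than in testis (median -2.98, range -4.38 to -1.85). In epididymis over SVF 9 of 10 were higher (median 2.28, range 1.44 to 2.76), with the sperm tail gene Akap4 at 2.73 ± 0.07. Sertoli cell markers were higher in testis than in SVF for 5 of 10 members (median 1.88, range -0.84 to 5.58) and Leydig cell markers for 5 of 5 measured (median 3.88, range 1.72 to 4.74). Leydig markers had a median of 0.61 for epididymis over SVF and none met the rule there. In epididymis over testis 4 of the 5 were lower (median -2.91, range -3.22 to -1.22). Sertoli cell markers were higher in epididymis than in SVF for 4 of 10 (median 0.98, range -1.61 to 2.72). They were lower in epididymis than in testis for 4 (median -0.73, range -4.19 to 0.91). Shares of all named genes called were 20.7% for testis above SVF, 10.2% for epididymis above SVF and 18% for epididymis below testis. The part of any of these cells in the Aqp11 ratios was not tested.

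The other aquaglyceroporins, Aqp3 and Aqp7, showed no such difference. Aqp7, the glycerol channel of adipocytes that is also known from spermatids, gave -0.21 and -1.03 for testis over SVF, 0.01 and -0.22 for epididymis over SVF, and 0.08 and -0.13 for epididymis over testis. No array put Aqp7 at 2-fold or more in favour of testis. The second array of testis over SVF put it just beyond 2-fold in favour of SVF. Adipocyte markers were lower in testis than in SVF for 5 of 7 members (median -2.12, range -5.14 to -0.26) and lower in epididymis than in SVF for 2 (median -0.79, range -3.01 to 0.16). Of all named genes, 16% and 8.68% were lower in these comparisons. Aqp3, an aquaglyceroporin of the basolateral membrane of collecting duct and of keratinocytes, differed little between tissues. Its ratios were 0.45 and 0.17 for testis over SVF, 0.24 and 0.05 for epididymis over SVF, and -0.02 and -0.12 for epididymis over testis.

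Aqp8, a channel for water and hydrogen peroxide known from testis, liver and colon, varied widely between the exchanged arrays. Epididymis over SVF was -2.51 and -0.81, a mean of -1.66 ± 1.20. Both arrays had it lower in epididymis, and only the first by 2-fold. Epididymis over testis was 0.99 and -0.90, so the sign changed with the dye. Testis over SVF was -0.08 and -1.03. Its SD exceeded that of 92.3% of named genes in epididymis over SVF and of 94.3% in epididymis over testis.

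Among the classical water channels, Aqp2, which vasopressin moves to the membrane of the collecting duct, gave 0.92 and -0.04 for testis over SVF, 0.07 and -0.45 for epididymis over SVF, and 0.21 and -0.71 for epididymis over testis. Its sign differed between the exchanged arrays in all 3 comparisons. Aqp4, the channel of astrocyte endfeet, gave -0.41 and -0.60, then 0.31 and 0.17, then 0.15 and 0.02 in the same order. Aqp5, which lies on the apical membrane of salivary and lacrimal gland cells, gave -0.18 and -0.85, then -0.15 and -0.94, then 0.49 and 0.10. Both arrays of a pair had the same sign for Aqp4 and for Aqp5, and none reached 2-fold.

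Across the family, the median mean ratio was -0.50 for testis over SVF, -0.11 for epididymis over SVF and 0.04 for epididymis over testis, against 0.00430, 0.07 and -0.00451 over all named genes. The median SD between exchanged arrays was 0.48, 0.37 and 0.38 for the aquaporins and 0.33, 0.37 and 0.35 for all named genes, in the same order. The median SD of the aquaporins was thus near that of all named genes in the 2 comparisons with epididymis, and larger in testis over SVF. Single members differed widely. In epididymis over testis, the SD of Aqp3 exceeded that of 10.9% of named genes and the SD of Aqp1 that of 94.8%.

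**Figure D3:**
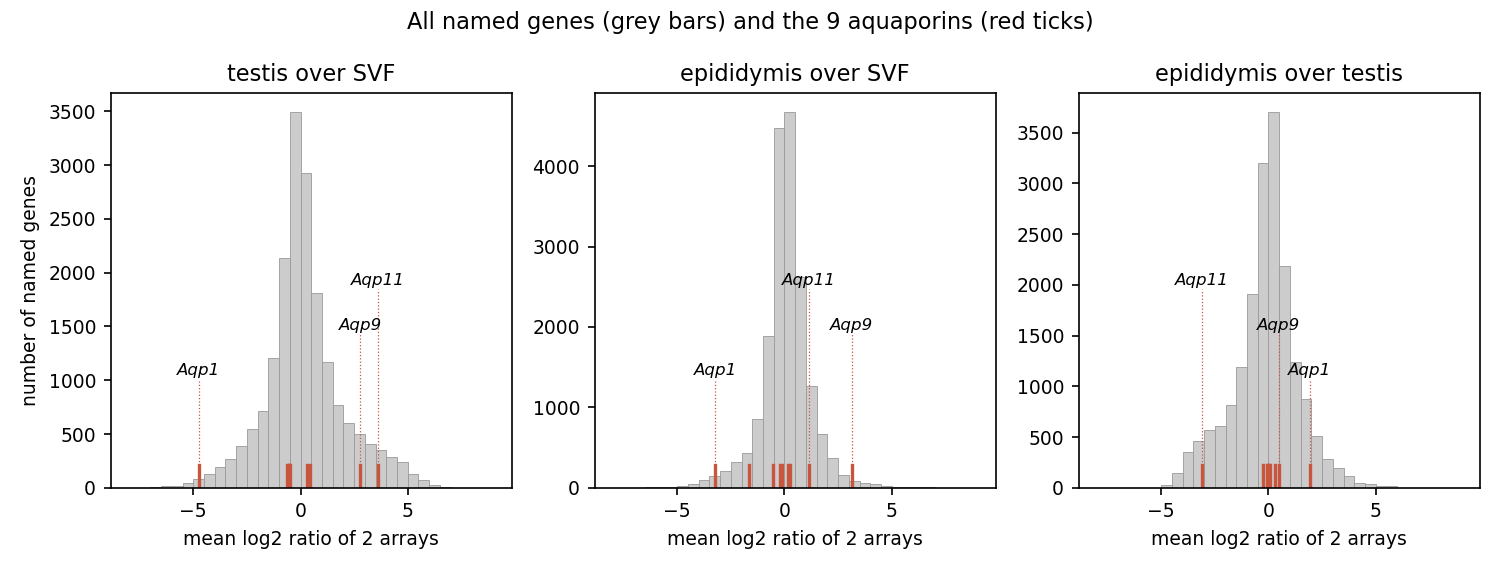
Distribution of mean log2 ratios over the 18532 named genes (grey bars, counts per bin) in the 3 comparisons, with red ticks at the 9 aquaporins and names on those that met the 2-fold rule somewhere. Aqp1 at -4.74 and Aqp9 at 3.13 lie in the tails of their comparisons with SVF, and most other ticks lie near 0.

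A least-squares fit of all 6 arrays put the 3 tissues on 1 scale for each gene, with the mean of the 3 set to 0. On this log2 scale Aqp1 levels were -0.44 in epididymis, -2.22 in testis and 2.65 in SVF (residual SD 0.81). SVF and epididymis differed by the 2-fold rule on both direct arrays. Epididymis and testis did not by that rule, though their fitted levels lay 1.78 apart. Aqp9 levels were 1.20 in epididymis, 0.77 in testis and -1.97 in SVF (residual SD 0.33), and the direct arrays met the rule for both against SVF and not for epididymis against testis. By the probe annotated 1700020I22Rik the order was another, at -0.75 in epididymis, 2.16 in testis and -1.41 in SVF (residual SD 0.50). Aqp11 levels were -0.66 in epididymis, 2.24 in testis and -1.59 in SVF (residual SD 0.45), and the direct arrays met the rule at both steps of its order, although the fitted step between epididymis and SVF was 0.93. The span between the highest and lowest tissue reached 1 (2-fold) in 4 of 9 aquaporins, these 3 and Aqp8 (span 1.28, residual SD 1.07), and in 55.2% of named genes. The other 5 spans ran from 0.28 for Aqp3 to 0.63 for Aqp5, and no neighbours in their orders met the rule on the direct arrays.

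**Figure D4:**
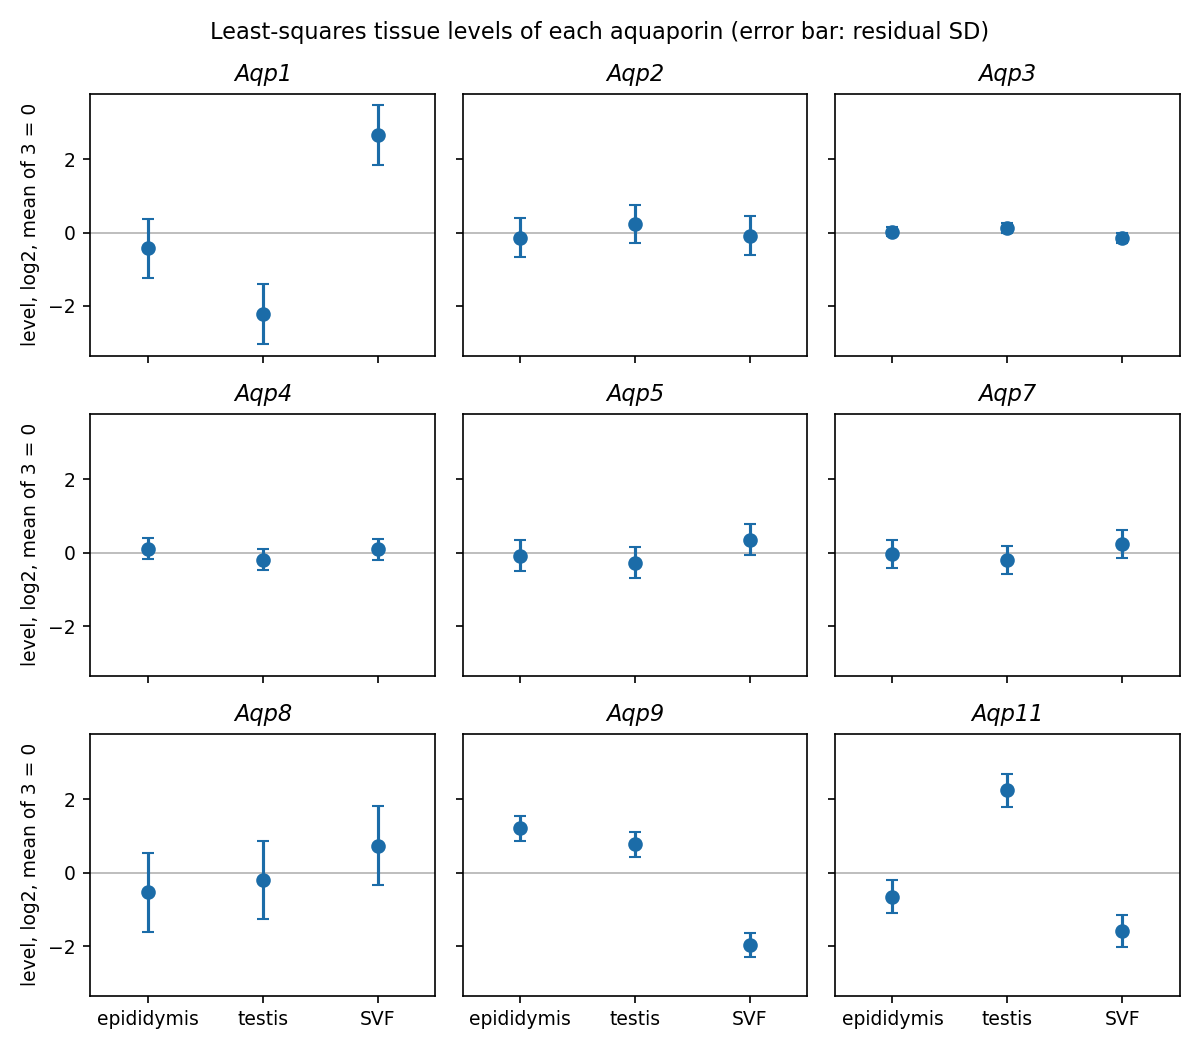
Least-squares level of each aquaporin in epididymis, testis and SVF (log2, mean of the 3 tissues set to 0), with the residual SD over the 6 arrays as the error bar. Aqp1 peaks in SVF at 2.65, Aqp11 in testis at 2.24, and Aqp9 is low in SVF at -1.97, while the error bars of Aqp2, Aqp4, Aqp5, Aqp7 and Aqp8 overlap between tissues.

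Because the dye swaps close a loop, every ratio could also be computed from the 4 arrays that did not compare the pair directly. For Aqp1 the indirect ratios were -5.14 for testis over SVF and -2.83 for epididymis over SVF. For Aqp9 they were 2.64 and 3.27, and for Aqp11 4.26 and 0.50. Aqp11 stood at -2.47 for epididymis over testis by this route. All 7 ratios that met the 2-fold rule kept their direction, and 6 of them their size of at least 2-fold. Added around the loop, the 3 mean ratios of a gene would give 0 if error-free. The sum was 0.14 for the probe annotated Aqp9, -0.57 for that annotated 1700020I22Rik, 0.39 for Aqp1 and -0.64 for Aqp11. It reached 1.14 for Aqp8, larger in size than in 94.4% of named genes, whose sums had an SD of 0.56.

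**Figure D5:**
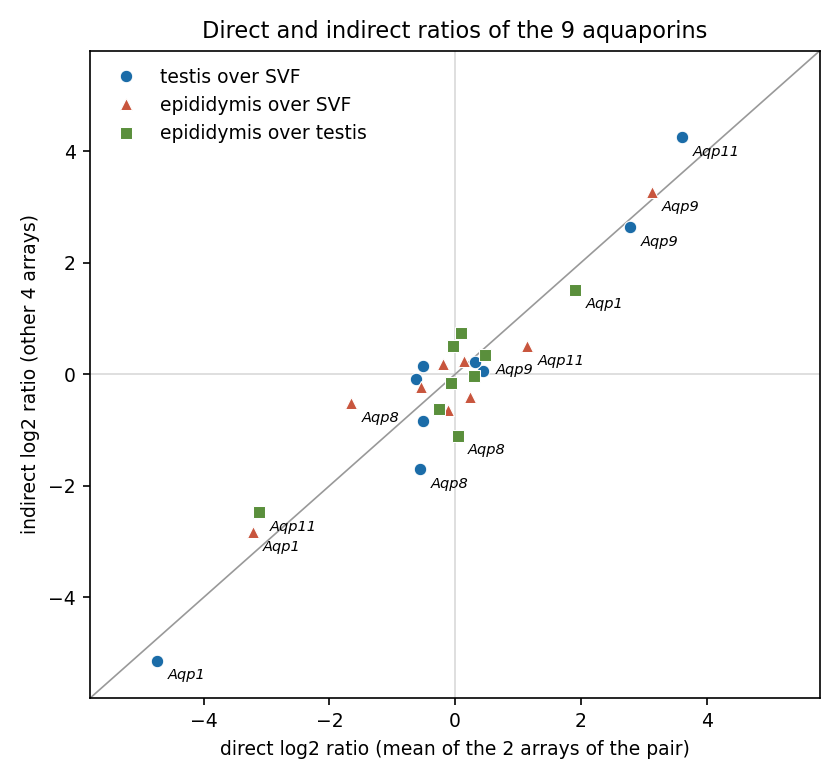
Direct log2 ratio of each aquaporin (mean of the 2 arrays of the pair) against the indirect ratio from the other 4 arrays, with the line of equality. Circles are testis over SVF, triangles epididymis over SVF and squares epididymis over testis. Vertical distance from the line is 0.14 for Aqp9, 0.39 for Aqp1, 0.54 for Aqp7, 0.64 for Aqp11, 0.66 for Aqp4 and 1.14 for Aqp8.

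The genes whose 6 ratios were closest to each pattern, by Euclidean distance over the 6 arrays, were named as a description. Nearest to Aqp1 were Iigp1 (distance 0.64), Tbxas1 (0.92) and Rab32 (1.03). Nearest to Aqp9 were Capn10 (0.89), Esyt3 (0.97) and Pgap2 (0.98). Nearest to Aqp11 were Ppp1r32 (0.28), Tcp11x2 (0.32) and Daw1 (0.38). Each distance is over 6 arrays of 3 RNA samples.

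Of the other aquaporin genes on the array, Aqp6, known from intracellular vesicles of kidney intercalated cells, had the largest ratio. Epididymis over testis was 4.56 and 4.71, a mean of 4.64 ± 0.10 or 24.9-fold higher in epididymis, and epididymis over SVF was 2.77 and 3.09, or 7.61-fold higher. Testis over SVF was -0.45 and 1.36, so testis and SVF had no settled order. Its loop sum of 2.16 was larger than in 99.2% of named genes, and the indirect ratio for epididymis over testis was 2.47. Mip, the lens fibre aquaporin, was lower in testis than in SVF at -1.72 and -2.75, and Aqp12, known from pancreatic acinar cells, lay between -0.35 and 0.13 on all 6 arrays. In the GRCm38.p6 gene table Aqp2, Aqp5 and Aqp6 follow each other on chromosome 15 with no coding gene between them. Of these neighbours Aqp6 alone met the 2-fold rule.

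Genes of glycerol handling, the pathway that aquaglyceroporins serve, went both ways. Of 15 measured, 6 were higher and 3 lower in testis than in SVF, 2 higher and 1 lower in epididymis than in SVF, and 2 higher and 6 lower in epididymis than in testis. The shares of all named genes in these 6 directions were 20.7% and 16%, 10.2% and 8.68%, and 14.3% and 18%, so that several of the counts lie near the background. Gk2, the glycerol kinase of germ cells, was 64.2-fold higher in testis than in SVF and stood at -4.40 ± 0.17 for epididymis over testis. The glycerol-3-phosphate acyltransferases Gpat2 and Gpat3 stood at 4.59 ± 0.57 and 3.66 ± 0.01 for testis over SVF. Lpl, which frees fatty acids from circulating triglyceride, stood at -4.51 ± 0.35 and, in epididymis over SVF, at -3.35 ± 0.82.

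Genes of epithelial salt and fluid transport, whose ion gradients water follows, were higher in epididymis than in SVF for 8 of 20 members and higher in epididymis than in testis for 8, and none was lower in either. Over all named genes 10.2% and 14.3% were higher, and 8.68% and 18% lower, in these comparisons. In testis against SVF 1 was higher and 4 were lower. The carbonic anhydrases Car4 and Car2 stood at 2.12 ± 0.53 and 1.71 ± 0.15 for epididymis over SVF, and at 3.44 ± 0.18 and 3.45 ± 0.40 for epididymis over testis. The chloride channel Cftr had the pattern of the Aqp9 probe, at 2.42 ± 0.54 for epididymis over SVF, 2.83 ± 0.25 for testis over SVF and 0.29 for epididymis over testis. The anion exchanger Slc26a3 stood at 2.19 ± 1.35 for epididymis over SVF and 3.10 ± 1.14 for epididymis over testis.

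Among 14 genes of organic osmolyte transport and the osmotic response, 3 were higher and 4 lower in testis than in SVF, 2 higher and 4 lower in epididymis than in SVF, and 1 higher and 4 lower in epididymis than in testis. Against the same shares of all named genes (20.7%, 10.2% and 14.3% higher, 16%, 8.68% and 18% lower), the counts of higher genes lie near or below the background and those of lower genes above it. The urea transporter Slc14a2 stood at 3.75 ± 1.01 for testis over SVF and 2.27 ± 0.41 for epididymis over SVF. The chaperone Hspa4l stood at 5.47 ± 0.64 and 1.88 ± 0.97 in that order. The kinase Sgk1 stood at -5.20 ± 0.20 and -2.41 ± 0.06, and the volume-regulated anion channel subunit Lrrc8a at -3.48 ± 0.52 and -2.45 ± 0.18.

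Of 17 receptors and kinases linked to aquaporin control, 1 was higher and 3 lower in testis than in SVF, none higher and 1 lower in epididymis than in SVF, and 1 in each direction in epididymis against testis. These counts lie near or below the shares of all named genes, which were 20.7% and 16%, 10.2% and 8.68%, and 14.3% and 18% in that order. The vasopressin receptor Avpr1a stood at -4.23 ± 0.07 for testis over SVF and -2.88 ± 0.70 for epididymis over SVF. The osmosensitive cation channel Trpv4 stood at -2.47 ± 0.23 for testis over SVF and 1.66 ± 0.29 for epididymis over testis. The estrogen receptor Esr2 stood at 2.07 ± 0.22 for testis over SVF and -1.50 ± 0.47 for epididymis over testis. The kinase A subunit Prkar2a stood at -1.30 ± 0.29 for testis over SVF.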

How the data were processed

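Total RNA of epididymis, testis and SVF was labelled with Cy3 and Cy5 and hybridised on 6 arrays, per the labels' protocols. The deposited values, 1 log ratio for each probe on each array, were read as log2. Neither the base and direction of the ratios nor the authors' background correction and normalization is given in the sources. Each ratio was signed by its Cy5 tissue. Of 21112 annotated probes, 20456 were named by gene ID in GRCm38.p6, 220 by symbol and 235 kept their annotated name. Another 171 with non-mouse symbols and 30 with several genes were left out. Probes of a gene were averaged. A gene was called when its log2 ratio was at least 1 in size on both arrays. With 1 RNA sample per tissue there was no test. Members and gene lists were chosen with earlier results of these data known. All 9 members, the list genes with the largest called ratios (up to 4 a list, 2 for markers) and the 3 nearest genes of each called member were named. The alternatives were median centring, loop and indirect estimates, 2-fold on the mean, 4-fold on both arrays, natural logarithms, single probes and each array left out. The calling was tested on simulated data. The number of arrays limits the precision. Python 3.11.15 with pandas 2.3.3 was used. Promoter sequences are from RefSeq (GRCm38.p6), with entries for 8 of the 9 genes.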

Additional observations from a re-analysis of the deposited data

How the results depend on the processing

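The 7 ratios that met the 2-fold rule, of Aqp1, Aqp9 and Aqp11, kept their direction under all 51 recomputed values. With both arrays beyond 1, leaving 1 array out, natural logarithms and single probes could not reverse a called ratio or bring it inside 1. Only median centring, the loop and indirect estimates and the second Aqp9 probe could have done so. Read as log2, Aqp11 for epididymis over SVF ranged from 0.50 to 1.27, and the 6 others stayed beyond 1 in size. Of the counts of members, 16 of 67 recomputed values moved by over 1.5 times. Members higher in SVF than in testis numbered 1, with 2 by the indirect ratio and 1 to 3 with 1 array left out (3 without the first, when Aqp7 and Aqp8 join Aqp1). Those higher in epididymis than in SVF numbered 2, with 1 by the loop estimate, 1 by the indirect ratio and 1 at 4-fold, since Aqp11 drops out. Those higher in SVF than in epididymis numbered 1, with 2 by the loop estimate, on the mean alone and as natural logarithms, and 1 to 2 with 1 array left out (2 without the second), since Aqp8 joins Aqp1. Those higher in epididymis than in testis numbered 0, with 1 (Aqp1) by the loop estimate, the indirect ratio, the mean alone and natural logarithms, and 0 to 1 with 1 array left out (1 without the first). Those higher in testis than in epididymis numbered 1, with 2 by the indirect ratio and 2 when the probe annotated 1700020I22Rik was averaged with Aqp9, an alternative chosen after seeing the data. Median centring and single probes moved no count by over 1.5 times. Each member has 1 probe annotated with its symbol, so single probes repeat the reported values. Of the ratios of single members, 30 of 192 recomputed values moved by more than the SD between arrays. Among them was Aqp9 averaged with the probe annotated 1700020I22Rik, at 1.99 for epididymis over SVF. For epididymis over testis that average changed sign, at -1.31 against 0.48. No paired analysis was possible because the labels give no replicate number that pairs arrays across comparisons, and no test was made. Signal over background, which sets how far small ratios can be read, was not analysed here.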

Other observations

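Other cell types of the 3 tissues gave these values, as log2 ratios. Of 8 clear cell markers, the proton-secreting cells of the epididymis, epididymis exceeded SVF for 2 (median 0.78, range 0.01 to 2.32), 5 were higher and 1 lower in epididymis than in testis (median 1.77), and 2 were lower in testis than in SVF (median -0.62). The proton pump subunit Atp6v0d2 stood at 3.57 ± 1.24 for epididymis over testis (SD, n = 2 arrays). Of 5 epididymal basal cell markers, epididymis exceeded SVF for 3 (median 1.89) and testis for 3 (median 2.29), with the keratin Krt5 at 3.55 ± 1.34 and 3.11 ± 0.03. The basal cell factor Trp63 stood at 2.89 ± 1.38 for epididymis over SVF and, with the sign changing between its arrays at -2.13 and 2.97, at 0.42 ± 3.60 for epididymis over testis. Of 6 smooth muscle markers, epididymis exceeded SVF for 3 (median 1.17) and testis for 4 (median 2.63). The actin Actg2 stood at 4.07 ± 0.33 and 2.02 ± 0.44 in that order, and Tagln at 1.43 ± 0.29 and 3.70 ± 0.54. In testis over SVF, 1 smooth muscle marker was higher and 3 were lower (median -1.50). There Actg2 stood at 3.62 ± 0.44 and Tagln at -2.89 ± 0.39.

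The lymphatic endothelial marker Lyve1 stood at -6.70 ± 0.77 for testis over SVF and -4.97 ± 0.85 for epididymis over SVF. The globin Hba-a1 stood at -2.60 ± 1.18 and -2.86 ± 1.35. Among leukocyte markers, Ptprc stood at -5.54 ± 0.87 and -3.15 ± 0.98, and S100a9 at -5.45 ± 0.43 and -4.64 ± 0.85. The fatty acid carrier Fabp4 stood at -5.14 ± 1.04 and -3.01 ± 1.35, and the lipid droplet gene Cidec at -3.07 ± 0.34 and -1.28 ± 0.21. The mesothelial gene Upk1b stood at -4.94 ± 0.60 for testis over SVF and 5.52 ± 0.21 for epididymis over testis. Upk3b stood at -2.63 ± 0.28 for testis over SVF. For epididymis over SVF these 2 genes parted, with Upk1b at 0.79 ± 0.51 and Upk3b at -2.25 ± 0.05. The acrosomal gene Spaca1 stood at 5.77 ± 1.39 for testis over SVF, and the Sertoli cell genes Tsx and Aard at 5.58 ± 0.69 and 4.29 ± 0.10. Tsx and Aard had the largest called ratios of 10 Sertoli cell markers. Of those 10, 5 were called higher in testis than in SVF (median 1.88, range -0.84 to 5.58), against 20.7% of all named genes. The steroidogenic genes Cyp11a1 and Hsd3b1 stood at 4.74 ± 1.26 and 4.25 ± 0.49 for testis over SVF. The secreted protein gene Pate6 stood at 8.57 ± 1.58 for epididymis over SVF.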
